A study of Mus musculus with 20 samples.

Results

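The genes that carry bile acids across the ileal wall, and those of the bile acid receptor FXR, were followed as a group of 8 of the 35204 genes in the table. They were taken by name. Slc10a2, Fabp6, Slc51a and Slc51b move bile acids, Nr1h4 encodes FXR, Fgf15 and Nr0b2 are regulatory targets of FXR, and Gata4 was added because it represses Slc10a2. All 8 passed the limit on low counts and were among the 16306 genes tested. The mice were 20 female C57BL/6 animals (C57Bl6 in the labels) that were 7 weeks old when they were placed for 3 weeks on a control amino acid diet (CD) or on the tryptophan-deficient diet (TDD). The specific pathogen-free (SPF) animals of each diet received no antibiotics. The others received ABX, a cocktail of ampicillin, vancomycin, gentamycin, metronidazole and neomycin in sweetened drinking water. This gave 4 groups of 5 mice, CD, TDD, CD+ABX and TDD+ABX. RNA came from 0.5 cm of whole ileal wall cut 2 cm from the cecum, so every value is a mixture of epithelium, muscle and immune cells.

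Bile acids are made from cholesterol in the liver, help to absorb fat in the small intestine and are recovered in the terminal ileum. Slc10a2 takes them up at the apical side of the enterocyte with sodium, Fabp6 binds them in the cytosol, and Slc51a and Slc51b form the exporter on the basolateral side. Inside the cell they activate FXR, which switches on Fgf15, a hormone that restrains bile acid synthesis in the liver, and Nr0b2 (SHP), a repressor without a DNA-binding domain. Gut bacteria deconjugate and dehydroxylate bile acids, and Gata4 keeps ileal genes such as Slc10a2 low in the jejunum.

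Promoter windows of RefSeq (GRCm38.p6, 250 bases before to 50 after the start of the RefSeq gene model) were found for 6 of the 8 genes. Fgf15 and Gata4 had no entry. The windows of 3 genes whose levels differed between groups are printed without annotated exons, with capitals for letters that match the FXR inverted repeat AGGTCANTGACCT, where N is any base and at most 2 of the other 12 letters may differ.

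Fabp6, chr11:43601563-43601812, minus strand: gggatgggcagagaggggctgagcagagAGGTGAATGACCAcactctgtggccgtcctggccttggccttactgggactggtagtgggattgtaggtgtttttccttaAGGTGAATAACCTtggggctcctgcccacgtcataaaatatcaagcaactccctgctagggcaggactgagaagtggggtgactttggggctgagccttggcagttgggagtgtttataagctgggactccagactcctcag
Slc10a2, chr8:5105352-5105537, minus strand: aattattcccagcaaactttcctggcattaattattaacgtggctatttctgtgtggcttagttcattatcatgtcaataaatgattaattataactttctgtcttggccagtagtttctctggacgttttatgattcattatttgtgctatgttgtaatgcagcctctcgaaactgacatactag
Nr0b2, chr4:133553126-133553375, plus strand: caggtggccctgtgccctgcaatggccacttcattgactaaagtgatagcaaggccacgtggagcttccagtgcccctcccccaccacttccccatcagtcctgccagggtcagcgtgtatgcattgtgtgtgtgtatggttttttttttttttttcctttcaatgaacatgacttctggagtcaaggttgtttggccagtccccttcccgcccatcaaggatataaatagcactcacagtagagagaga

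The Fabp6 window held 2 such matches, each with 2 mismatches. They were AGGTGAATGACCA, which began 222 bases before the start, and AGGTGAATAACCT, which began 142 bases before it. No match lay in the windows of Slc10a2, Slc51a, Slc51b, Nr1h4 or Nr0b2. Over all 32851 windows of the table, 1.14% held the repeat. The GATA site AGATAA, searched on both strands, was found once among the 6 genes, in the Nr1h4 window 131 bases before the RefSeq start, and in 11.2% of all windows. That window (chromosome 10, 89506659 to 89506908, minus strand) lies inside the longer GENCODE span of Nr1h4 given with its levels. The LRH-1 site CAAGGTCA was in none of the 6 and in 1.56% of all windows. Both sites were searched only as these exact sequences. Other forms of a GATA or LRH-1 site were not looked for, in the Slc10a2 window or in any other. A match describes letters in the window and nothing about binding.

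Libraries held 36676963 to 58662617 estimated counts each. Levels are given as CPM, the counts scaled to library size by TMM, or as TPM, which also corrects for transcript length, where genes are compared with each other. Called genes had to change at least 2-fold and to have q, the p-value of edgeR's quasi-likelihood test after Benjamini-Hochberg adjustment, under 0.05. The label of ileum was checked against known genes. Slc10a2 and Fabp6, which mark the terminal ileum, were at 1.38 to 3.88 and 0.319 to 2.42 CPM in the 5 CD mice, whereas Lct, a lactase of the proximal gut, was at 1660 to 3120 CPM and Gata4 at 75 to 118 CPM in the same mice. Cubn, the ileal vitamin B12 receptor, was present at 962 ± 260 CPM (SD, n = 5). How far along the gut the pieces lay could not be settled from these values, and its part in the low Slc10a2 and Fabp6 of SPF mice was not tested. Single mice held RNA of genes that mark neighbouring organs. The pancreatic genes Prss2, Cpa1 and Pnlip were at 12.1, 23.3 and 33.2 CPM in CD mouse 5 and at most 0.0753 CPM in every other mouse, and the liver gene Alb was at 10.9 to 14.9 CPM in TDD mice 4 and 5 and CD+ABX mice 1 and 2 and at most 0.168 CPM elsewhere. The colon gene Car1 was at 2.4 CPM (100 counts) in CD+ABX mouse 2 and had at most 2 counts in any other mouse. The sum of 4 colon markers in that mouse was 163 CPM, within the 126 to 184 CPM of all mice. Alb and Car1 are single genes, and whether their RNA came from those organs was not tested. CD mouse 2 had the lowest sum of 9 enterocyte markers, 15100 CPM, and the lowest sum of 10 proximal gut genes, 8130 CPM, against 19600 to 25500 CPM in the other CD mice. Without CD mice 2 and 5, a fit chosen after seeing the data, the number of the 8 genes called stayed the same in each of the 7 comparisons.

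Slc10a2 and Fabp6 were the genes of the group called higher with ABX on both diets. Slc10a2, the apical transporter (ENSMUSG00000023073.2, chromosome 8, 5083219 to 5105351 on GRCm38), was at 1.38, 1.46, 2.44, 2.61 and 3.88 CPM on CD and at 3.69, 4.49, 5.94, 6.52 and 8.8 CPM on TDD. With ABX it was at 16.6, 24.3, 33.1, 37.3 and 86 CPM on CD and at 13.2, 31.8, 36.3, 45.5 and 58.3 CPM on TDD. Every ABX-treated mouse lay above every SPF mouse, while the diets overlapped in both settings. Mean levels rose from 2.35 ± 1.02 to 39.5 ± 27.2 CPM on CD (SD, n = 5 each; log2 fold change 4.07, standard error 0.48, 16.7-fold, q = 9.83e-05, edgeR). On TDD they rose from 5.89 ± 1.98 to 37 ± 16.7 CPM (SD, n = 5 each; log2 fold change 2.65, standard error 0.44, 6.29-fold, q = 0.0014, edgeR). TDD against CD in SPF mice was not called by edgeR (log2 fold change 1.32, standard error 0.47, q = 0.0679). DESeq2 called it (q = 0.0282), as did edgeR with the SPF groups fitted alone (q = 0.0285) or without CD mouse 2 (q = 0.0476), CD+ABX mouse 5 (q = 0.0298) or TDD+ABX mouse 4 (q = 0.0489). In ABX-treated mice the same contrast gave -0.09 (standard error 0.41, q = 0.943, edgeR).

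Fabp6, the cytosolic carrier (ENSMUSG00000020405.4, chromosome 11, 43596049 to 43601540), followed Slc10a2 in direction and varied more between mice. It was at 0.319, 0.413, 0.711, 2 and 2.42 CPM on CD and at 0.238, 0.298, 0.518, 2.03 and 3.91 CPM on TDD. With ABX the mice were at 2.65, 5.46, 14.6, 40.7 and 144 CPM on CD and at 3.34, 14.4, 19.8, 22.1 and 40.8 CPM on TDD. The lowest CD+ABX mouse lay above all CD mice, and the lowest TDD+ABX mouse, at 3.34 CPM, lay below the highest TDD mouse. Fabp6 rose 35.2-fold with ABX on CD (log2 fold change 5.14, standard error 1.10, q = 0.00585, edgeR) and 15.1-fold on TDD (log2 fold change 3.92, standard error 1.06, q = 0.0198, edgeR). CD+ABX mouse 4, at 144 CPM, carried much of the size of the first change, which was 3.77 on the log2 scale without it (q = 0.0186, edgeR). Without TDD mouse 4 the second was 4.77 (q = 0.0195, edgeR). With limma-voom neither was called (q = 0.101 and 0.086). The diets did not separate Fabp6 in either setting, with log2 fold changes of 0.16 (standard error 1.14, q = 0.947) in SPF and -1.05 (standard error 0.88, q = 0.626) in ABX-treated mice by edgeR. Neither direction was stable, since the first was -0.28 with limma-voom and the second 0.33 without CD+ABX mouse 4 and 0.03 with the replicate number as a block. A change in a bulk sample can come from more cells of a type or more RNA per cell, and these cannot be told apart here.

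**Figure D1:**
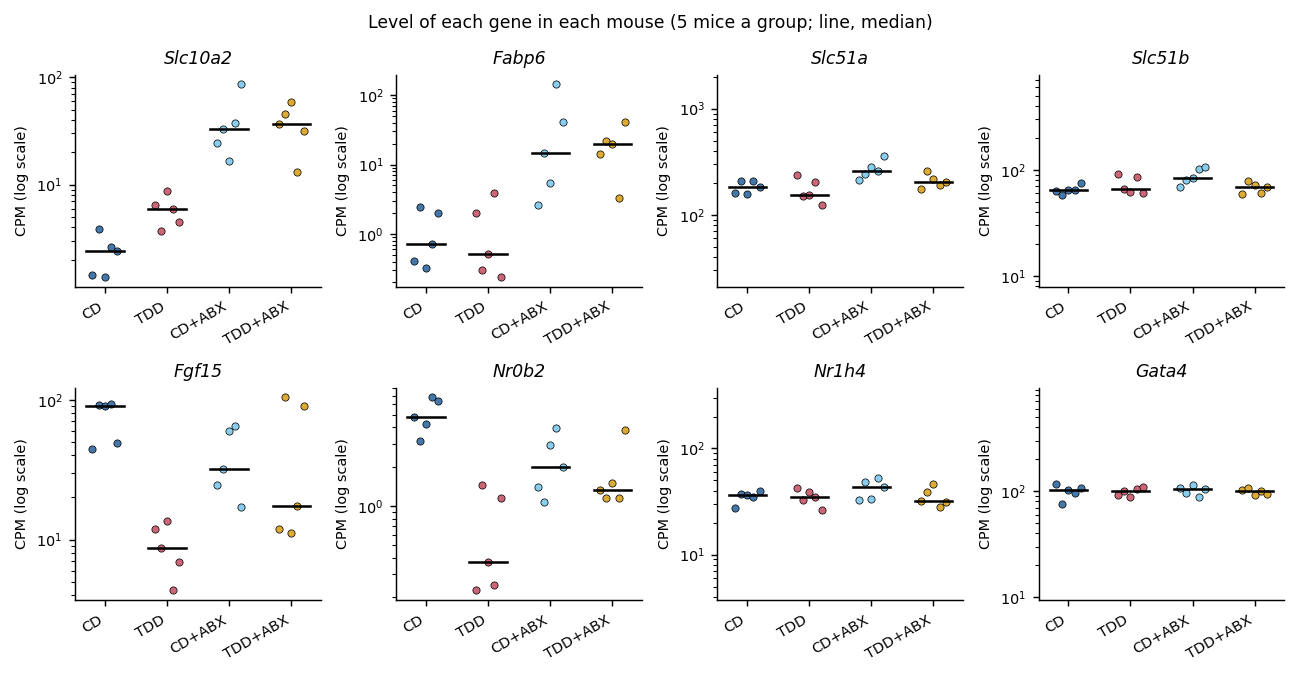
CPM of each gene in each of the 20 mice, on a log axis, by group (points, mice; lines, medians of 5 mice). Slc10a2 was at 1.38 to 8.8 CPM in the 10 SPF mice and at 13.2 to 86 CPM in the 10 ABX-treated mice, and Fgf15 at 44.6 to 92.9 CPM on CD and 4.32 to 13.5 CPM on TDD.

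Markers of other cells and of gut position moved with ABX in the same mice. The sum of 9 enterocyte markers ranged from 15100 to 24300 CPM on CD and from 19100 to 22600 on TDD, and from 25200 to 40300 and 26900 to 32000 CPM with ABX. Of the 9, 3 passed q with ABX on each diet, Krt8, Anpep and Fabp2, all higher. Fabp2, a cytosolic fatty acid carrier of enterocytes, was the largest (log2 fold changes 1.20 and 1.22, q = 0.000543 and 0.000556, edgeR). The sum of 5 lymphocyte markers was at 60.6 to 138 CPM on CD and 36.2 to 188 CPM on TDD, and at 35.5 to 46.3 and 31.3 to 126 CPM with ABX. Smooth muscle markers, 5 genes, overlapped in all groups at 439 to 2310 CPM, and so did 4 colon markers at 126 to 184 CPM. The summed proximal gut genes had medians of 21300 and 20500 CPM in SPF mice and of 11800 and 15000 CPM after ABX. Apoa4, a lipoprotein of fat absorption, was at means of 6690 and 8440 CPM in SPF and 2190 and 3860 CPM in ABX-treated mice. Of the 10, 2 were lower at q under 0.05 with ABX on CD, against 7.37% of all genes. On TDD 2 were lower and 1 higher, against 8.22% and 7.14%. Lct, also among the 10, was at 1660 to 3120 CPM on CD and 1470 to 2820 CPM on CD+ABX. On TDD it was at 1670 to 2430 CPM, and on TDD+ABX at 1710 to 2330 CPM. Medians of 8 distal genes outside the group were 4310 and 4510 CPM in SPF and 5140 and 5670 CPM in ABX-treated animals. The part of these shifts in the change of Slc10a2 and Fabp6 was not tested.

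**Figure D2:**
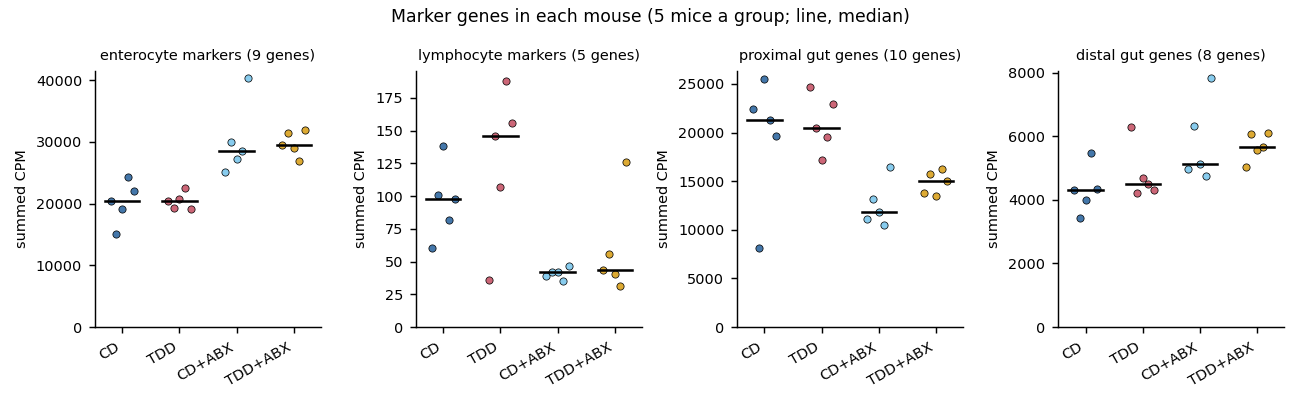
Summed CPM of enterocyte markers, lymphocyte markers, proximal gut genes and distal gut genes in each mouse by group (points, mice; lines, medians of 5 mice). Enterocyte sums were at 15100 to 24300 CPM without ABX and 25200 to 40300 CPM with ABX, and CD mouse 2 had the lowest proximal sum, 8130 CPM.

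The exporter changed far less. Slc51a (ENSMUSG00000035699.8, chromosome 16, 32474504 to 32487879) was at 158, 160, 184, 209 and 210 CPM on CD, at 123, 150, 155, 206 and 237 CPM on TDD, at 212, 242, 261, 281 and 358 CPM on CD+ABX and at 176, 190, 202, 219 and 257 CPM on TDD+ABX. CD+ABX was the highest group, above all 5 CD mice and overlapping the other groups. Slc51a passed q with ABX on CD below the 2-fold limit (log2 fold change 0.56, standard error 0.17, q = 0.0326, edgeR). Its partner Slc51b (ENSMUSG00000053862.6, chromosome 9, 65412714 to 65422955) was at 58.3 to 75.8 CPM on CD, 61.1 to 90.3 on TDD, 69.3 to 107 on CD+ABX and 59.6 to 77.8 on TDD+ABX, and also passed q with ABX on CD (log2 fold change 0.44, standard error 0.13, q = 0.0312, edgeR). On TDD the ABX contrast gave 0.26 (q = 0.293) for Slc51a and -0.10 (q = 0.617) for Slc51b by edgeR. The 2 subunits were also near each other in level. The ratio of Slc51a to Slc51b in TPM was 1.07 ± 0.193 on CD, 0.899 ± 0.0908 on TDD, 1.16 ± 0.126 on CD+ABX and 1.17 ± 0.0583 on TDD+ABX (SD, n = 5 each).

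Fgf15 and Nr0b2 fell on TDD in SPF mice. Fabp6, Slc51a and Slc51b, which are also known targets of FXR, did not pass the test for the diet. Fabp6 was at most 3.91 CPM in SPF mice, and 2 standard errors either side of its contrast there reached from -2.12 to 2.45. A 2-fold fall of Fabp6 lay within that range, so its contrast does not set it apart from Fgf15 and Nr0b2. Fgf15 (ENSMUSG00000031073.6, chromosome 7, 144896531 to 144900953) was at 44.6, 48.8, 90.2, 92.4 and 92.9 CPM on CD and at 4.32, 6.9, 8.66, 11.9 and 13.5 CPM on TDD, with no overlap. Its mean fell from 73.8 ± 24.8 to 9.05 ± 3.7 CPM (SD, n = 5 each), 8.14-fold lower on TDD (log2 fold change -3.03, standard error 0.63, q = 0.00392, edgeR). ABX-treated mice were at 17.2, 24.6, 32.1, 59.9 and 65.4 CPM on CD and at 11.1, 11.9, 17.3, 91.1 and 104 CPM on TDD. In the TDD+ABX group, mouse 2 lay above the CD range, mouse 5 within it, and the other 3 mice below it. The diet contrast in ABX-treated mice gave 0.24 (standard error 0.57, q = 0.887, edgeR), and -0.28 without TDD+ABX mouse 2. ABX raised Fgf15 on TDD (log2 fold change 2.38, standard error 0.62, 5.2-fold, q = 0.0163, edgeR) and gave -0.89 (standard error 0.58, q = 0.361) on CD. The call on TDD rested in part on TDD+ABX mouse 2, without which it was 1.85 with q = 0.0547 (edgeR). It was also lost with limma-voom (q = 0.0953), with the TDD groups fitted alone (q = 0.0518) and with the replicate number as a block (q = 0.0518, edgeR).

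Nr0b2 (ENSMUSG00000037583.2, chromosome 4, 133553376 to 133556536) was at 3.12, 4.23, 4.82, 6.33 and 6.76 CPM on CD and at 0.226, 0.248, 0.373, 1.16 and 1.44 CPM on TDD. The groups did not overlap, and the lowest TDD value came from 9 counts. Nr0b2 was 7.19-fold lower on TDD (5.05 ± 1.5 and 0.689 ± 0.569 CPM, SD, n = 5 each; log2 fold change -2.85, standard error 0.52, q = 0.00127, edgeR). With ABX it was at 1.08, 1.39, 1.98, 2.95 and 3.97 CPM on CD and at 1.15, 1.16, 1.32, 1.49 and 3.83 CPM on TDD. The ABX-treated groups overlapped each other and both SPF groups. Their diet contrast was -0.35 (standard error 0.48, q = 0.786, edgeR). The ABX contrasts were -1.15 on CD (standard error 0.47, q = 0.123, edgeR) and 1.34 on TDD (standard error 0.51, q = 0.0767, edgeR), neither of them called. The first was called with limma-voom (q = 0.0343) and the second with DESeq2 (q = 0.0261), with limma on log2(TPM + 0.1) (q = 0.0244) and by edgeR without TDD mouse 2 (q = 0.0371).

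Neither the receptor itself nor Gata4 passed the test in any comparison. Nr1h4 (ENSMUSG00000047638.15, chromosome 10, 89454234 to 89533585) was at 27.5, 35.1, 36.7, 37.3 and 40 CPM on CD, at 26.2 to 42.6 CPM on TDD, at 32.6 to 53 CPM on CD+ABX and at 28.2 to 46.1 CPM on TDD+ABX. Groups overlapped in all 4 contrasts, and the largest differences on the log2 scale were 0.25 with ABX on CD and -0.25 with the diet in ABX-treated mice (standard errors 0.16, q = 0.342 and 0.494, edgeR). In SPF mice the diet contrast of Nr1h4 was -0.02, with 2 standard errors either side reaching from -0.34 to 0.30. Nr1h4-201, a protein-coding transcript, held most of the gene's TPM, with a mean of 66.1% on CD and 68.5% on TDD. Gata4 (ENSMUSG00000021944.15, chromosome 14, 63198922 to 63271692) was at 75, 96.9, 103, 108 and 118 CPM on CD, at 89 to 109 CPM on TDD, at 88.7 to 114 CPM on CD+ABX and at 91.8 to 108 CPM on TDD+ABX. Its 4 contrasts lay between -0.05 and 0.03 on the log2 scale with standard errors of 0.10, so that a change of 2-fold lay outside 2 standard errors in each. For Fgf15, the protein-coding transcript Fgf15-201 held 90.1 ± 2.27% of the gene's TPM on CD and 84.6 ± 3.68% on TDD (SD, n = 5 each), so the fall was that of the coding transcript, from 52.4 to 6.02 TPM.

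On the TPM scale the 8 genes spanned a wide range. Over the 20 mice the median was 182 TPM for Slc51a, 166 for Slc51b, 50.9 for Gata4, 24.8 for Nr1h4, 22.9 for Fgf15, 12.3 for Fabp6, 3.6 for Slc10a2 and 1.93 for Nr0b2. Fabp6 had the widest spread, from 0.933 to 582 TPM, followed by Slc10a2, from 0.442 to 25.6 TPM. Gata4 had the narrowest, from 38.3 to 60.4 TPM. By group means in CPM, Fgf15 ran from CD (73.8) through TDD+ABX (47.1) and CD+ABX (39.8) to TDD (9.05), and all neighbours overlapped except CD+ABX and TDD. Nr0b2 ran from CD (5.05) through CD+ABX (2.27) and TDD+ABX (1.79) to TDD (0.689), again with each neighbour overlapping.

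Counted over the group, the diet in SPF mice called 2 of 8 genes, Fgf15 and Nr0b2, both lower, against 1.83% of all genes tested. These 2 were also the genes whose groups did not overlap, as for 9.58% of all genes. Fgf15 and Nr0b2 were lower at q under 0.05, as were 7.71% of all genes, and none of the 8 was higher by edgeR, against 6.65%, although Slc10a2 had an unadjusted p of 0.0114 and was called by DESeq2. In ABX-treated mice the diet called 0 of 8 with edgeR, DESeq2 or limma-voom, and 2 of them, Slc51a and Slc51b, had an unadjusted p under 0.05. The background was 0.307% called, 4.78% without overlap, and 0.626% higher and 1.02% lower at q under 0.05. ABX on CD called 2 of 8, Slc10a2 and Fabp6, against 2.25%. Slc51a joined them in not overlapping, against 9.74%. Higher at q under 0.05 were 4 of 8, against 5.26%, and lower 0 of 8, against 7.37%. Nr0b2 was the one gene of lower level there with an unadjusted p under 0.05, and limma-voom called it. ABX on TDD called 3 of 8, Slc10a2, Fabp6 and Fgf15, against 1.63%. Of these, Slc10a2 alone did not overlap, against 11%. All 3 were higher, against 7.14%, and 0 of 8 were lower by edgeR, DESeq2 or limma-voom, against 8.22%. No gene of the 8 had a negative change with an unadjusted p under 0.05 on TDD.

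Averaged over SPF and ABX-treated mice, the diet contrast was called lower for Fgf15 (log2 fold change -1.39, standard error 0.42, q = 0.0281, edgeR) and Nr0b2 (-1.60, standard error 0.35, q = 0.00388, edgeR), 2 of 8 against 1.13% of all genes. The Fgf15 average joined -3.03 in SPF mice with 0.24 in ABX-treated mice, and that of Nr0b2 joined -2.85 with -0.35. For Fgf15 the averaged call was lost without CD+ABX mouse 3 or 4 or TDD mouse 4 or 5 (q = 0.0517, 0.0567, 0.0503 and 0.0516), with no filter on low counts (q = 0.0591) and with the replicate number as a block (q = 0.0554), all by edgeR. ABX averaged over both diets raised Slc10a2 10.3-fold (q = 6.67e-06, edgeR) and Fabp6 23.1-fold (q = 0.000348, edgeR), 2 of 8 against 2.35%. Whether the diet acted differently in SPF and ABX-treated mice was tested as an interaction, which called 0 of 8 by edgeR and by limma-voom, where 0.0245% of all genes were called by edgeR. At an unadjusted p under 0.05 there were 4 of 8 by edgeR, and the share of all genes at that limit was not taken. They were Fgf15 (difference 3.27 on the log2 scale, standard error 0.84, q = 0.166), Nr0b2 (2.49, standard error 0.69, q = 0.204), Slc51b (-0.54, standard error 0.18, q = 0.329) and Slc10a2 (-1.41, standard error 0.62, q = 0.506). DESeq2 called 2 of 8, Fgf15 (q = 0.018) and Nr0b2 (q = 0.0283), and 51 genes over all genes. By edgeR the diet effect on these 2 genes was thus not shown to differ between SPF and ABX-treated mice.

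**Figure D3:**
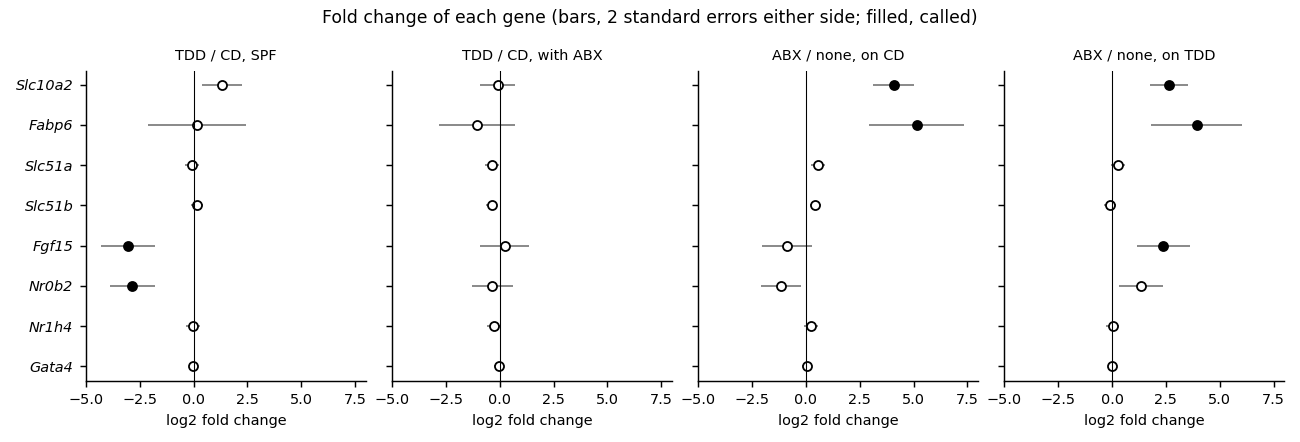
Log2 fold change of the 8 genes in the 4 comparisons between 2 groups, with bars of 2 standard errors either side from edgeR and filled points for genes called. Fgf15 (-3.03) and Nr0b2 (-2.85) were called lower on TDD in SPF mice, and Slc10a2 (4.07 and 2.65) and Fabp6 (5.14 and 3.92) were called higher with ABX on CD and TDD.

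Pairs of genes were compared across the 20 mice after each group was centred on its mean, with permutation of mice within groups. Of 4 pairs, the exporter subunits Slc51a and Slc51b varied together (Pearson r = 0.783, permutation p = 0.00095, adjusted 0.0038, and Spearman rho = 0.753, permutation p = 0.00145, adjusted 0.0058). Without the 2 mice farthest from the Slc51a median r was 0.708 (permutation p = 0.0111). Gata4 and its target Slc10a2 gave r = -0.424 (permutation p = 0.0488, adjusted 0.0976) and rho = -0.514 (permutation p = 0.0291, adjusted 0.0582). That value did not pass the correction, and without CD mice 1 and 2 it was -0.34 (permutation p = 0.25). On log2(TPM + 1) it was -0.553 with an adjusted permutation p of 0.00524, and without CD+ABX mouse 5 or TDD+ABX mouse 2 it passed as well (-0.553 and -0.482, adjusted permutation p = 0.0174 and 0.039). Slc10a2 and Fgf15 gave r = -0.0507 (permutation p = 0.881) and rho = 0.0015 (permutation p = 0.998). Without CD+ABX mouse 5 and TDD+ABX mouse 3 it was 0.376 (permutation p = 0.318). Fgf15 and Nr0b2 gave r = 0.316 (permutation p = 0.254, adjusted 0.339) and rho = 0.209 (permutation p = 0.412, adjusted 0.549), although the uncentred r, which includes the differences between groups, was 0.741. TDD+ABX mouse 2 had 104 CPM of Fgf15 with 1.16 CPM of Nr0b2, and TDD+ABX mouse 5 had 91.1 CPM with 3.83 CPM.

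**Figure D4:**
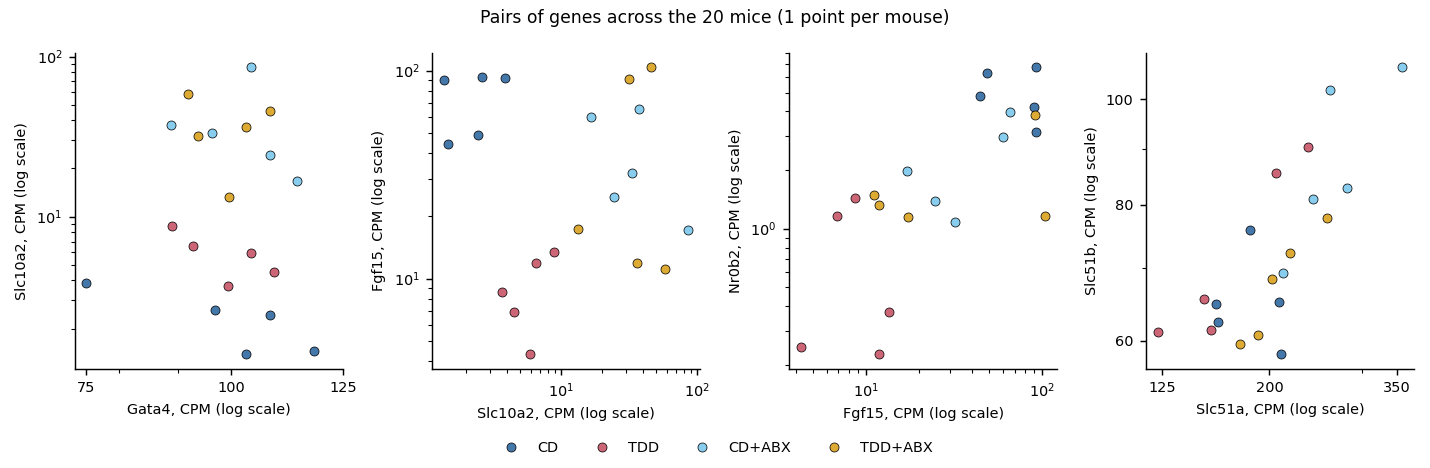
The 4 pairs of genes in the 20 mice (1 point per mouse, coloured by group, both axes CPM on a log scale). Slc51a and Slc51b rose together (r = 0.783 within groups), whereas Slc10a2 and Fgf15 did not (r = -0.0507).

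Genes outside the group were ranked by how closely they followed Slc10a2 and Fgf15 over the 20 mice, as a description among 11126 genes with a mean of at least 5 CPM. The points share the group differences, so r within groups is given as well. Closest to Slc10a2 were Slc13a1, a sodium and sulfate cotransporter (r = 0.955, within groups 0.790), Edn3 (0.953 and 0.678), Plscr1 (0.937 and 0.848), Aldh9a1 (0.934 and 0.674) and Abat (0.933 and 0.478). Closest to Fgf15 were Dhrs3, a retinal reductase (r = 0.873, within groups 0.778), Tmem139 (0.814 and 0.475), Gca (0.811 and 0.647), Slc6a20b (0.773 and 0.348) and Tnfrsf10b (0.763 and 0.539).

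Among the other genes, 14 bile acid carriers and related transporters and pumps were listed and 11 were tested. Counts over this list are therefore not a measure of bile acid transport. The diet in SPF mice raised 4 of 11 at q under 0.05, against 6.65% of all genes, with a median log2 fold change over the 11 of 0.31 against 0.01 for all genes. Abcb1a, a drug efflux pump, was at 108 to 153 CPM on CD and 282 to 430 CPM on TDD, and at 167 to 489 and 491 to 748 CPM with ABX. It rose with the diet in SPF mice (by 1.52 on the log2 scale, q = 0.000162, edgeR) and in ABX-treated mice (1.15, q = 0.00989, edgeR), and with ABX on CD (1.22, q = 0.00136, edgeR). Slc10a6, a carrier of steroid sulfates, rose on TDD in SPF mice from 1.2 to 2.6 CPM (log2 fold change 1.11, q = 0.0266, edgeR) and fell with ABX on TDD (-1.24, q = 0.0163, edgeR). In ABX-treated mice the diet moved 1 of 11 higher (0.626% of all genes). ABX on CD moved 2 higher and 1 lower (5.26% and 7.37%), and ABX on TDD 3 higher and 2 lower (7.14% and 8.22%). The liver carriers Abcb11 and Slc10a1 and Slco1a5 were too low to be tested.

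Nuclear receptors and partners of FXR moved little. Of 22 listed and 20 tested, 2 were higher and 2 lower on TDD in SPF mice, against 6.65% and 7.71% of all genes, and 1 was lower on TDD in ABX-treated mice, against 1.02%. With ABX, 1 was higher and 4 lower on CD, against 5.26% and 7.37%, and 2 were higher and 3 lower on TDD, against 7.14% and 8.22%. None passed the 2-fold limit, and medians were between -0.14 and -0.01. Rxrb, a shared partner of nuclear receptors, fell on TDD (44.3 to 35.9 CPM, log2 fold change -0.30, q = 0.000848, edgeR). Ppard, a fatty acid receptor, fell with the diet in both settings (-0.37 and -0.48, q = 0.02 and 0.0206, edgeR) and with ABX on both diets (-0.37 and -0.49, q = 0.0211 and 0.00444, edgeR). Nr1h3, the oxysterol receptor LXR alpha, rose with ABX on both diets (0.27 and 0.52, q = 0.0229 and 0.000432, edgeR), and the coactivator Ncoa1 fell with ABX on CD (-0.34, q = 0.00339, edgeR). Nr1i3, a xenobiotic receptor known as CAR, rose on TDD averaged over both settings (0.45, q = 0.00041, edgeR).

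Of 12 other regulators of Slc10a2 or of ileal identity, all tested, 0 passed for the diet by edgeR in either setting (1 in each at an unadjusted p under 0.05), and 4 were higher with ABX on each diet, against 5.26% of all genes on CD and 7.14% on TDD, with medians of 0.12 and 0.15. Elavl1, an RNA-binding protein that stabilizes messenger RNA, was the lowest in q (0.22 on CD and 0.28 on TDD, q = 0.0124 and 0.0032, edgeR). Gata6, a relative of Gata4, rose on TDD averaged over both settings (0.30, q = 0.013, edgeR). Of 18 genes of bile acid synthesis, conjugation and detoxification, 13 were tested, and Cyp7a1, the rate-limiting enzyme of bile acid synthesis in liver, was at most 0.11 CPM. The diet moved 2 of 13 higher and 1 lower in SPF mice and 1 lower in ABX-treated mice (medians 0.11 and 0.19), against 6.65%, 7.71% and 1.02% of all genes. ABX moved 2 higher and 3 lower on CD, against 5.26% and 7.37%, and 2 higher and 1 lower on TDD, against 7.14% and 8.22%, with medians of 0.01 and -0.29. Acaa1b, a peroxisomal thiolase, was at 7.95 to 24.2 CPM on CD and 2.19 to 3.55 CPM on CD+ABX (log2 fold change -2.28, q = 0.000701, edgeR), and fell likewise on TDD (-2.08, q = 0.00139, edgeR). Cyp3a11, a bile acid and drug hydroxylase, fell with ABX on CD (-1.41, q = 0.0181, edgeR). Ugt2b5, a glucuronosyltransferase, rose with ABX on CD and TDD (0.72 and 0.97, q = 0.00188 and 0.000322, edgeR), and Hsd3b7, an enzyme of bile acid synthesis, fell on TDD in SPF mice (-0.44, q = 0.000509, edgeR).

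The 6 genes of FGF15 output and membrane bile acid receptors were all tested. Chrm3, a muscarinic receptor, rose on TDD in SPF mice (0.43, q = 0.0472, edgeR), 1 of 6 against 6.65% of all genes. None of the 6 passed q by edgeR for the diet in ABX-treated mice, with ABX on CD or with ABX on TDD. In the same order, 0.626%, 5.26% and 7.14% of all genes were higher and 1.02%, 7.37% and 8.22% lower. At an unadjusted p under 0.05 there were 0, 3 and 1 of the 6, and no share of all genes was taken at that limit. Malrd1, which promotes FGF15 release, rose with ABX averaged over both diets (0.31, q = 0.013, edgeR). Fgfr4, the FGF15 receptor, was at 3.19 to 8.42 CPM over the 20 mice. Of 10 proximal gut genes, Dnase1 fell on TDD in SPF mice (256 to 48.1 CPM, -2.41 on the log2 scale, q = 2.31e-05, edgeR) and in ABX-treated mice (-1.09, q = 0.0356, edgeR) and rose with ABX on TDD (1.30, q = 0.00329, edgeR). Apoa4 fell with ABX on both diets (-1.61 and -1.13, q = 0.00593 and 0.0336, edgeR), as did the iron exporter Slc40a1 (-0.86 and -0.55, q = 0.000261 and 0.0061, edgeR). The medians of the 10 were -0.45 and -0.42 with ABX and 0.07 and 0.13 with the diet. Of 8 distal genes, Enpep, an aminopeptidase, rose with ABX on CD (950 to 1940 CPM, log2 fold change 1.03, q = 0.000555, edgeR). It was the 1 higher and 1 other was lower there, against 5.26% and 7.37% of all genes. Medians of the 8 were 0.22 and 0.08 with ABX and -0.09 and -0.07 with the diet. Medians over all genes tested were between -0.03 and 0.01 in these 4 contrasts.

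**Figure D5:**
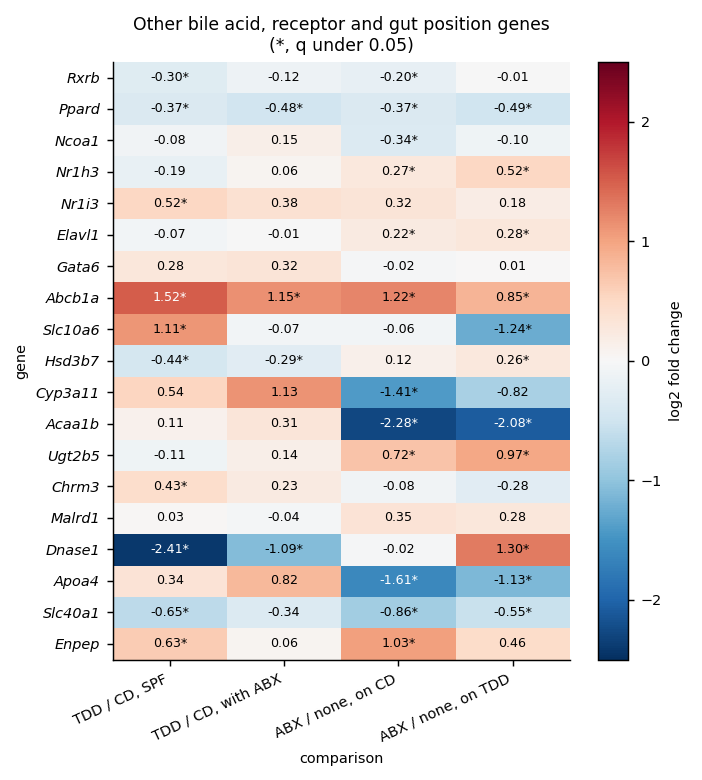
Log2 fold change of the 19 named genes outside the group in the 4 comparisons between 2 groups (colour and number; asterisk, q under 0.05 by edgeR). Abcb1a was higher in all 4 (1.52, 1.15, 1.22 and 0.85), and Acaa1b was lower with ABX on both diets (-2.28 and -2.08).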

How the data were processed

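RNA-seq was performed by the authors on ileal tissue of 20 mice, 5 per group, with poly-A selected RNA. The authors pseudoaligned the reads with kallisto 0.44.0 to the mouse GRCm38 transcriptome and deposited estimated counts and TPM per transcript and estimated counts per gene. Estimated counts were rounded to whole numbers. Genes that reached 0.5 CPM in 1 or more mice were kept, scaled by TMM and fitted over all 4 groups with edgeR's quasi-likelihood test (edgeR 4.0.16, R 4.3.3) with Benjamini-Hochberg adjustment. Genes at q under 0.05 and at least 2-fold were called. The share of all genes at an unadjusted p under 0.05 is not given here, so counts at that limit have no background. DESeq2 1.42.0, limma-voom and limma on log2(TPM + 1) or log2(TPM + 0.1) (limma 3.58.1), no filter, a stricter filter, no fold limit, a replicate block and leaving out each mouse were tried as alternatives. Scripts were tested on simulated data. Relations used 100000 permutations within groups on log2(CPM + 1), and fewer where single mice were left out. Promoter windows were searched on both strands. Positions are those of GENCODE M21 on GRCm38.

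The genes of the group and all gene lists were chosen with earlier results of these data known. Of the lists, every gene called in any of the 7 comparisons and the gene with the lowest q under 0.05 per list and comparison were eligible to be named. Other genes named were chosen after their values were seen. The comparisons share groups of mice and are not independent. Cage sharing is not given in the sources used here, so p-values measure the spread between these mice. All 20 labelled mice were used, although the study's own displays show fewer, and which mice those leave out is not given in the sources used here.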

Additional observations from a re-analysis of the deposited data

Results flagged for a closer look

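Among 32 sets of 5 mice (8 genes in 4 groups), 2 held a mouse set apart from the other 4 by a gap of more than 0.71 of the set's range. For normally distributed values chance flags about 1 in 20. The values used were CPM without a log, which need not follow that distribution. Fabp6 in CD+ABX mouse 4 was at 144 CPM, with the next mouse at 40.7 CPM (gap 0.731 of the range). Nr0b2 in TDD+ABX mouse 5 was at 3.83 CPM, with the next at 1.49 CPM (gap 0.873 of the range).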

How the results depend on the processing

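Fgf15 and Nr0b2 lower on TDD in SPF mice, and Slc10a2 higher with ABX on both diets, were called in every alternative run. Of the 8 genes, leaving out single mice left 2 to 3 called for the SPF diet contrast, 0 to 0 for that with ABX, 2 to 2 for ABX on CD, 2 to 4 for ABX on TDD, 1 to 2 for the averaged diet, 2 to 2 for averaged ABX and 0 to 0 for the interaction. The averaged diet called 1 with no filter and 1 with the replicate block, the interaction 2 with DESeq2, ABX on TDD 1 with limma-voom, and ABX on CD 4 with no fold limit. Over 30 pairs of same-numbered mice, deviations from group means correlated at -0.382 to 0.256 (median -0.018), with 5 over 0.1, so the numbers were not used to pair mice. What a number marks is not given in the sources used here. As a replicate block it removed the call of Fgf15 with ABX on TDD (2.18, q = 0.0518, edgeR) and with the averaged diet (-1.42, q = 0.0554, edgeR), and gave Fabp6 0.03 for the diet in ABX-treated mice and 0.04 for the averaged diet.

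Directions that reversed were of values not called, and the cause was not tested. With limma-voom, log2(TPM + 1) and log2(TPM + 0.1), in that order, Fabp6 for the diet in SPF mice was -0.28, -0.11 and -0.20, Fgf15 for the diet in ABX-treated mice -0.27, -0.16 and -0.18, and the Fabp6 interaction 0.08, 0.02 and 0.12. With log2(TPM + 1) and log2(TPM + 0.1), Gata4 was 0.01 and 0.02 for the SPF diet contrast, 0.05 and 0.05 for that with ABX, 0.03 and 0.03 for the averaged diet and 0.03 and 0.03 for the interaction. Slc10a2 was 0.03 and 0.03 for the diet in ABX-treated mice and Slc51b 0.01 and 0.01 for ABX on TDD, and Nr0b2 for averaged ABX was -0.06 with log2(TPM + 1). Without CD mice 2 and 5, chosen after seeing the data, Nr1h4 for the diet in SPF mice was 0.07, Fabp6 for the averaged diet 0.20, and Gata4 -0.04 for ABX on CD, -0.01 for averaged ABX and 0.07 for the interaction. Fabp6 with ABX on CD was then 6.44 (q = 0.0148, edgeR).

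Leaving out single mice, Fabp6 ranged from -0.69 to 0.58 for the diet in SPF mice, -1.47 to 0.33 in ABX-treated mice, -0.87 to 0.25 averaged and -1.63 to 0.14 for the interaction. Gata4 ranged from -0.12 to 0.04 for the diet in SPF mice, -0.06 to 0.09 for ABX on CD, -0.01 to 0.05 for averaged ABX and -0.09 to 0.08 for the interaction. Nr1h4 ranged from -0.10 to 0.07 for the diet in SPF mice and -0.08 to 0.11 for ABX on TDD. Fgf15 and Slc10a2 for the diet in ABX-treated mice ranged from -0.28 to 0.49 and -0.32 to 0.41, Slc51a for the diet in SPF mice from -0.22 to 0.02, and Nr0b2 for averaged ABX from -0.13 to 0.31. The relation of Gata4 and Slc10a2 ranged from -0.553 to -0.352, that of Slc10a2 and Fgf15 from -0.208 to 0.145, that of Fgf15 and Nr0b2 from 0.0992 to 0.483, and that of Slc51a and Slc51b from 0.727 to 0.859. On log2(TPM + 1) the first was -0.553, and without the 2 farthest mice that of Slc10a2 and Fgf15 was 0.376. With log2(TPM + 1), which shrinks low genes, called changes kept their direction and were smaller, at 2.77 for Slc10a2 and 3.86 for Fabp6 with ABX on CD, 1.76 for Fgf15 with ABX on TDD and -2.07 for Nr0b2 with the diet in SPF mice. Low counts limit Fabp6 (13 to 142 counts on TDD) and Nr0b2 (9 to 68 counts on TDD).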
